A study of Mus musculus with 6 samples.

Results

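The 36 genes described here encode the enzymes that build fatty acids and join them to glycerol, together with a pair of transcription factors that control them. They were taken by gene symbol from a table of 27179 genes, all 36 were present, and they were grouped by step into acetyl-CoA supply, synthesis, elongation, desaturation, activation, glycerolipid assembly and transcription factors. RNA sequencing had been performed on organoids, budding epithelial cultures, grown in Matrigel with IntestiCult medium from wild-type mouse small intestine. Of the 6 libraries, 3 came from organoids given the thyroid hormone T3 at 1e-07 M and 3 from organoids given the vehicle, both for 17 h. No label says whether the 3 libraries of a group came from separate cultures or mice, so each p-value sets the difference against the variation among these libraries, and that variation may be technical.

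In the cytosol, citrate and acetate are turned into acetyl-CoA, acetyl-CoA carboxylase makes malonyl-CoA from it, and fatty acid synthase strings malonyl units into palmitate. Enzymes of the endoplasmic reticulum then lengthen and desaturate the chains, acyl-CoA synthetases activate them, and acyltransferases and lipins place them on glycerol on the way to triglyceride and phospholipid. The intestinal epithelium runs this route beside its handling of dietary fat. In rodent liver, thyroid hormone is known to induce several genes of the route, among them Me1, Fasn, Acaca and Thrsp, and the factors SREBP-1 (Srebf1) and ChREBP (Mlxipl) respond to insulin and sterols and to glucose.

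Summed over the table, the T3 libraries held 29510422 to 29974091 normalized reads and the vehicle libraries 28197080 to 28611883. All 10 epithelial markers were expressed, and of these 6 were higher with T3, among them the brush border gene Vil1, and the stem cell receptor gene Lgr5 was lower. Their summed level was 140517 to 151781 normalized reads with T3 and 119572 to 121505 with vehicle. Of 5 adipocyte markers, Adipoq and Lep were at 0 in every library and only Cidec passed the filter on low values, with a list sum of 149 to 225 with T3 and 120 to 165 with vehicle. The 4 hepatocyte markers summed to 20 to 35 with T3 and 24 to 30 with vehicle, with Cyp8b1 at 0 throughout. The 7 fibroblast, muscle and endothelial markers summed to 12 to 26 with T3 and 19 to 39 with vehicle, with Cdh5 at 0. The myeloid marker Itgam was called higher, at 341 to 356 normalized reads with T3 and 81 to 111 with vehicle. In bulk RNA a change in the number of cells of a type and a change in RNA per cell cannot be told apart, and the part of these marker shifts in the results was not tested.

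Levels are normalized reads per gene, as deposited, and levels of different genes are compared per kilobase of exon. Fold changes are T3 over vehicle on the scale of log2(normalized reads + 1), with standard errors (SE) and Benjamini-Hochberg adjusted p-values from limma over the 13052 genes that reached 10 normalized reads in at least 3 libraries. Calls were made at an adjusted p under 0.05. Of the 36 genes, 33 passed that filter. Elovl2, Elovl3 and Elovl4 did not, with 3 to 9, 0 to 1 and 0 normalized reads across the T3 libraries and 7 to 13, 0 to 1 and 0 to 3 across the vehicle libraries. Elovl2 elongates long polyunsaturated chains, Elovl3 is a gene of skin, liver and brown fat, and Elovl4 makes the very longest chains of retina and skin.

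With T3, 17 of the 33 tested genes were called higher and 5 lower, beside 24.0% called higher and 20.8% called lower among all genes tested. The groups did not overlap at 23 of the 33, beside 54.9% of all genes tested. The median log2 fold change was 0.15, against -0.01 over all genes tested, and the median of its absolute value was 0.21, against 0.19. An absolute log2 fold change of at least 0.5 was reached by 7 called genes (Elovl6, Mlxipl, Scd1, Agpat2, Elovl5, Acsl1 and Acsl4), all of them higher with T3, a size that 15.3% of all genes tested reached with a call. With column totals made equal, 12 of the 33 genes were called higher and 6 lower, beside 18.7% and 29.5% of all genes tested, and their median log2 fold change was 0.08. With upper-quartile scaling that median was 0.10. Both rescalings multiply whole libraries and so lower the log2 fold change of every gene by nearly the same amount. The median over all genes tested shifts with them, and its value of -0.01 belongs to the main scaling only. A core of 16 calls, 12 higher and 4 lower, held in all 17 alternative settings tried. The other 6 calls (Elovl1, Hsd17b12, Tecr, Scd2, Agpat1 and Lpin2) were of small changes and are described with some of the settings that ended them.

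**Figure D1:**
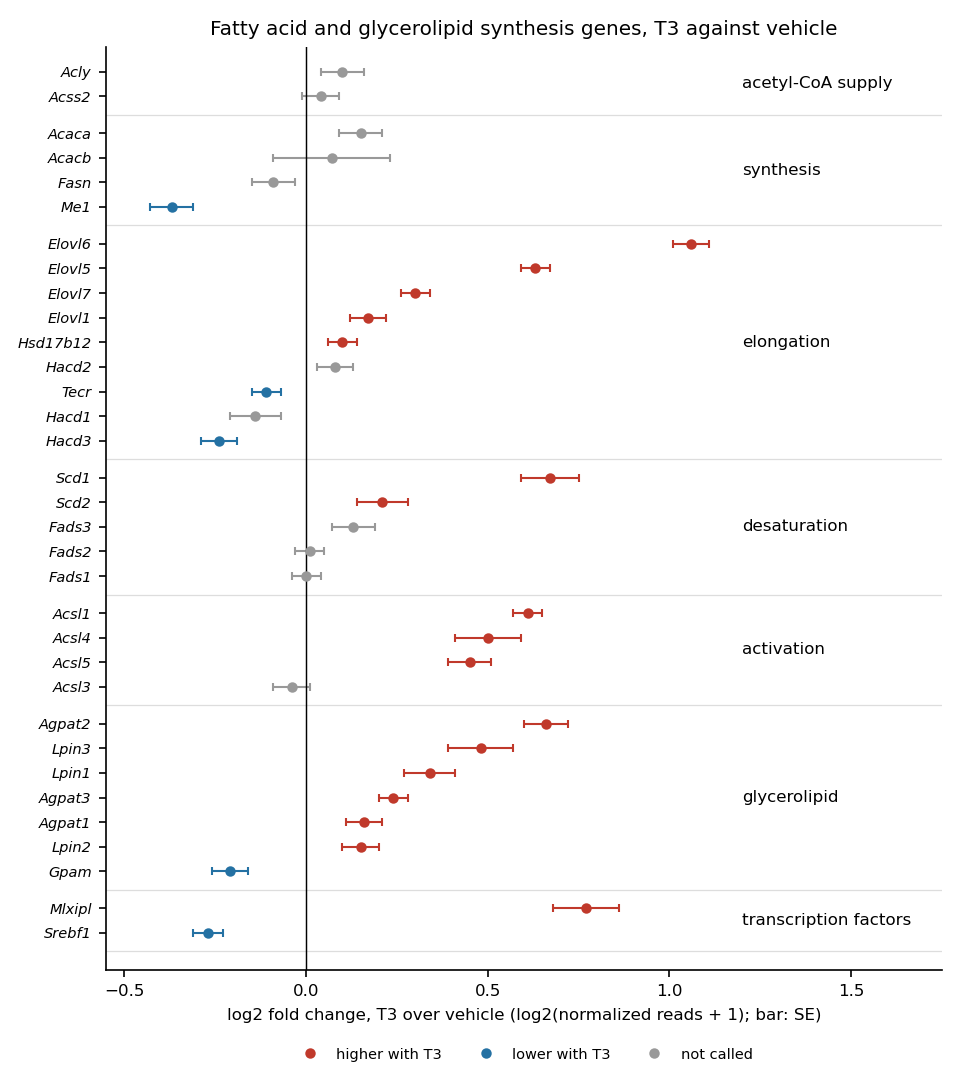
Log2 fold change (T3 over vehicle) of the 33 tested genes with its SE as a bar, grouped by step from top to bottom. Points right of 0 are higher with T3; Elovl6 lies farthest to the right at 1.06 and Me1 farthest to the left at -0.37. Of the glycerolipid genes 6 of 7 were called higher and of the activation genes 3 of 4, while in the acetyl-CoA and synthesis steps 0 were. Among all genes tested, 24.0% were called higher.

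Promoter sequences are shown as examples for 3 of the 7 genes above, 1 for each of the motifs linked to nuclear receptors, ChREBP and SREBP-1. Of the other 4, Acsl1 had 2 windows that are not shown, 1 with the sterol element and CCAAT boxes and 1, nearer to the start of its gene model, with none of the motifs. Agpat2 and Acsl4 held none of the motifs in their windows, and Scd1 had no window. RefSeq promoters (GRCm38.p6, 250 bases before to 50 after a start) were found for 32 of the 36 genes, 44 windows in all, and Scd1, Scd2, Fads1 and Elovl3 had none. Letters searched for on both strands stand in capitals: AGGTCA, the core element that nuclear receptors recognise, in Elovl6, the E-box CACGTG and the CCAAT box in Elovl5 and in the upstream Mlxipl window, and TCACNCCAC, a sterol regulatory element, in the downstream Mlxipl window. A motif on the opposite strand reads as its reverse complement, so AGGTCA appears as TGACCT and CCAAT as ATTGG.
Elovl6, plus strand, chr3:129532136-129532435: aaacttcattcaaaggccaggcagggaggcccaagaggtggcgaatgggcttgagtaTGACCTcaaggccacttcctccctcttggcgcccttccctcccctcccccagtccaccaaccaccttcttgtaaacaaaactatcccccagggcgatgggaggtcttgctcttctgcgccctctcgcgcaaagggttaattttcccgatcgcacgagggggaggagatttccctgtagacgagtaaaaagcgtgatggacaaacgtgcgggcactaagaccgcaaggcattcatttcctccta
Elovl5, plus strand, chr9:77917115-77917414: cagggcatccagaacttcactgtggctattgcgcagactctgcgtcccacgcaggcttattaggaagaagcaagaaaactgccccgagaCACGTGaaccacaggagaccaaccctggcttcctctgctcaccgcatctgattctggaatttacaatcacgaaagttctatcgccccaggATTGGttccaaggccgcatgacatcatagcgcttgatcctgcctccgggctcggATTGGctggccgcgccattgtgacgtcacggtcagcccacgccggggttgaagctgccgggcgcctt
Mlxipl upstream window, plus strand, chr5:135089640-135089939: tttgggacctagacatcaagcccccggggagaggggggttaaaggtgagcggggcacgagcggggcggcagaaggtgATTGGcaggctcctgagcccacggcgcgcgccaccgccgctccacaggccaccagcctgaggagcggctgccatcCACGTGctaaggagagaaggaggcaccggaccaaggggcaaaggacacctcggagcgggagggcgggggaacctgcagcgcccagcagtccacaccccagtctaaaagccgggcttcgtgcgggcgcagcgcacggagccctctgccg
Mlxipl downstream window, plus strand, chr5:135106641-135106940: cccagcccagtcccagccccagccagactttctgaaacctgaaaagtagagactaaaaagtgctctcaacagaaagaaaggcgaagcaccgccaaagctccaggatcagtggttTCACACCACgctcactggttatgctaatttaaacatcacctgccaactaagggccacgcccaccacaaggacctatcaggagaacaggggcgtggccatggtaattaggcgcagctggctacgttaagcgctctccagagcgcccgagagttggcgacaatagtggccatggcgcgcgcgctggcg

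The Elovl6 element begins 193 bases before the start. In Elovl5 the E-box begins 161 bases before the start and the CCAAT boxes 71 and 17 bases before it. The Mlxipl gene model behind the read counts begins at position 135106891, the start of the downstream window, whose sterol element begins 136 bases before it. Reads were counted per gene, so use of the upstream start was not measured. AGGTCA was found in 15.9% of the 44 windows and in 16.3% of all 32851 promoters. CACGTG was found in 13.6% and in 7.15%, CCAAT in 47.7% and in 37.4%, and TCACNCCAC in 4.55% (Mlxipl and Acsl1) and in 1.24%. The exact direct repeat of AGGTCA with 4 bases between the copies, the classical thyroid hormone response element, was in 0 of the 44 windows and in 0.0152% of all promoters. The direct repeat of CACGTG with 5 bases between was in 0 windows and in 0 of all promoters. AGGTCA lay in Elovl1, Elovl6, Agpat1 and Lpin1, called higher, in Gpam, called lower, and in Acly and Acacb, not called. CACGTG lay in Elovl5, Lpin2, Lpin3 and Mlxipl, called higher, in Hacd3, called lower, and in Elovl4, below the filter. These matches are a description of letters, and binding was not measured.

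The transcription factor genes moved in opposite directions. Mlxipl, which encodes the glucose-responsive factor ChREBP (gene ID 58805, mm10 chromosome 5, 135106891 to 135138382, 17 exons), had 11457, 12278 and 10443 normalized reads in T3 replicates 1 to 3, against 5710, 7195 and 7213 in vehicle replicates 1 to 3. Every T3 library lay above every vehicle library, and Mlxipl rose 1.70-fold (log2 0.77 ± 0.09 SE, adjusted p = 0.000109). Srebf1, which encodes SREBP-1, the insulin- and sterol-responsive driver of lipogenic genes (gene ID 20787, chromosome 11, 60199089 to 60220604, 19 exons), had 8507, 8335 and 8649 normalized reads with T3, against 10014, 9985 and 10690 with vehicle. All T3 values were below all vehicle values, and Srebf1 fell by 0.27 on the log2 scale (± 0.04 SE, adjusted p = 0.000544). Per kilobase, Mlxipl stood at 3122 ± 252 and Srebf1 at 1977 ± 36.6 with T3 (SD, n = 3), whereas with vehicle Mlxipl stood at 1838 ± 236 and Srebf1 at 2380 ± 92.8. The order of the pair was therefore opposite in the groups, and in both groups the values of Mlxipl and Srebf1 did not overlap.

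The genes of acetyl-CoA supply and of fatty acid synthesis itself showed 0 higher calls and 1 lower one. Among all genes tested, 24.0% were called higher and 20.8% lower. Acly, ATP-citrate lyase, which makes cytosolic acetyl-CoA from citrate, had 15522, 15587 and 13449 normalized reads with T3, against 13940, 13465 and 14038 with vehicle. T3 replicates 1 and 2 were above all vehicle libraries and T3 replicate 3 was below them, and Acly was not called (log2 0.10 ± 0.06 SE, adjusted p = 0.187, but 0.00614 without T3 replicate 3). Acss2, which makes acetyl-CoA from acetate, averaged 3862 ± 254 with T3 and 3761 ± 40.6 with vehicle and was not called (adjusted p = 0.582).

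Fasn, fatty acid synthase (gene ID 14104, chromosome 11, 120805958 to 120824547, 43 exons), had 29538, 27657 and 30832 normalized reads with T3, against 32879, 28975 and 31642 with vehicle. The groups overlapped and Fasn was not called (log2 -0.09 ± 0.06 SE, 95% interval -0.22 to 0.05, adjusted p = 0.274). Of the exon length of Fasn, 9.14% overlapped exons listed without a gene symbol on the opposite strand. Acaca, the cytosolic acetyl-CoA carboxylase, averaged 2936 ± 97.6 with T3 and 2652 ± 194 with vehicle, at a log2 fold change of 0.15 that did not pass (adjusted p = 0.0548, but 0.039 without T3 replicate 3 and 0.0131 without vehicle replicate 1). Acacb, the carboxylase of the mitochondrial surface, was low at 70.0 ± 11.4 with T3 and 66.3 ± 6.11 with vehicle (adjusted p = 0.77), and held 2.47% ± 0.322 of carboxylase reads per kilobase with T3 and 2.60% ± 0.321 with vehicle.

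Me1, the cytosolic malic enzyme, which supplies NADPH for chain synthesis and is induced by thyroid hormone in rodent liver (gene ID 17436, chromosome 9, 86581363 to 86695914, 15 exons), had 776, 706 and 738 normalized reads with T3, against 934, 936 and 998 with vehicle. All T3 libraries lay below all vehicle libraries. Me1 fell by 0.37 on the log2 scale (± 0.06 SE, adjusted p = 0.000633). Summed per kilobase, the 4 synthesis genes stood at 3493 ± 156 with T3 and 3705 ± 224 with vehicle (SD, n = 3), values whose ranges overlapped.

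**Figure D2:**
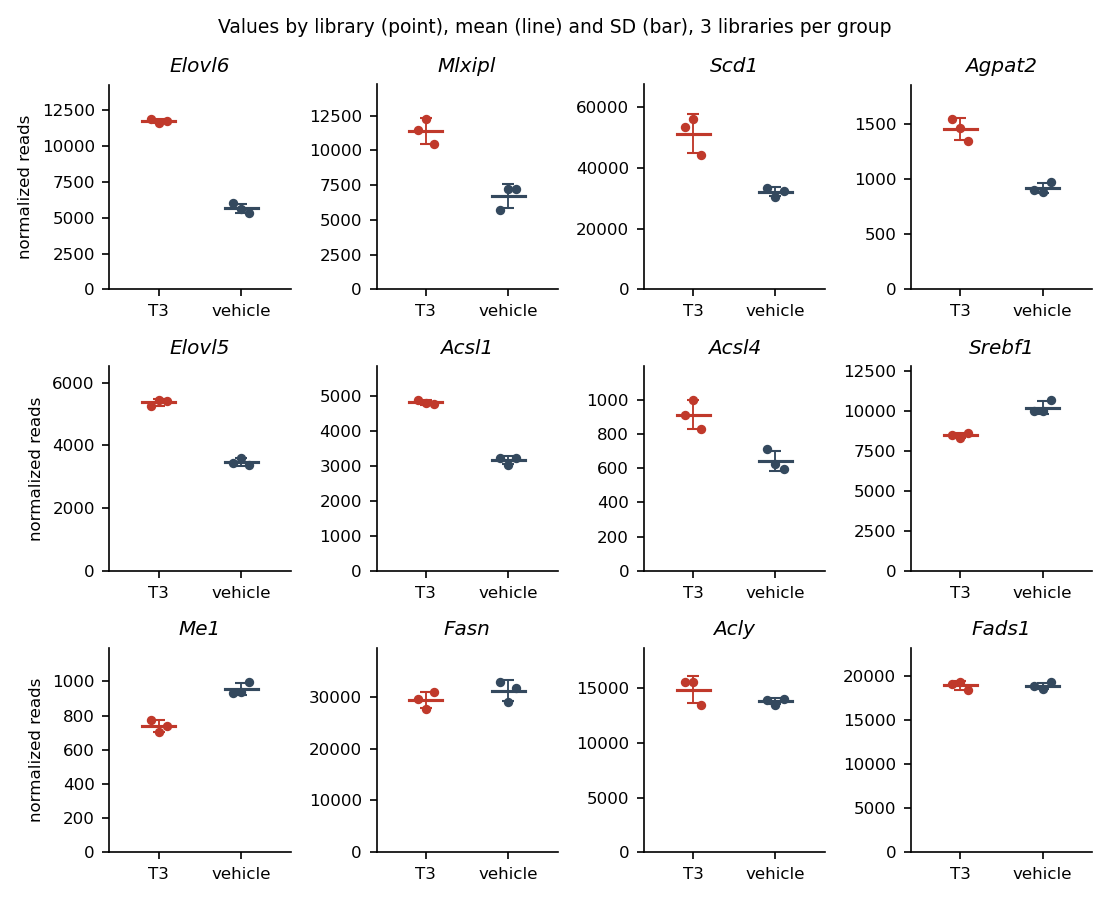
Normalized reads of 12 genes in each library (points), with the group mean as a line and the SD as a bar, T3 left of vehicle. The groups are apart for Elovl6, Mlxipl, Scd1, Agpat2, Elovl5, Acsl1, Acsl4, Srebf1 and Me1 and overlap for Fasn, Acly and Fads1.

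Chain elongation held the largest rise of the set. Elovl6, the elongase that turns palmitate into stearate (gene ID 170439, chromosome 3, 129532386 to 129638495, 5 exons; promoter shown above), had 11925, 11638 and 11778 normalized reads with T3, against 6020, 5613 and 5357 with vehicle. The lowest T3 value was far above the highest vehicle value, and Elovl6 rose 2.08-fold (log2 1.06 ± 0.05 SE, adjusted p = 1.66e-07). Elovl5, which lengthens polyunsaturated and monounsaturated chains (gene ID 68801, chromosome 9, 77917365 to 77984519, 8 exons), had 5258, 5444 and 5406 normalized reads with T3, against 3450, 3602 and 3364 with vehicle. Its groups were apart as well, and Elovl5 rose 1.55-fold (log2 0.63 ± 0.04 SE, adjusted p = 1.59e-06).

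Elovl7, an elongase of long saturated and unsaturated chains, rose 1.23-fold, with a mean of 3278 ± 48.5 with T3 and 2662 ± 115 with vehicle (adjusted p = 0.000352). Elovl1, an elongase of very long saturated chains, rose 1.13-fold, at 3564 ± 157 with T3 and 3160 ± 161 with vehicle (adjusted p = 0.0183). The call of Elovl1 was lost in 6 of the 17 settings, with an adjusted p of 0.0862 without T3 replicate 1, 0.0506 without vehicle replicate 1 and 0.105 with equal column totals.

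Because the elongases rose by different amounts, their mix per library shifted (shares of Elovl reads per kilobase, which do not depend on the scaling between libraries). Elovl6 made up 31.0% ± 0.322 of the elongase signal with T3 and 21.9% ± 1.33 with vehicle (SD, n = 3). Elovl1 made up 29.3% ± 0.994 with T3 and 38.1% ± 1.78 with vehicle. In the T3 libraries Elovl1, Elovl5 and Elovl6 were thus close to each other, at 28.3% to 31.3% each, whereas in the vehicle libraries Elovl1 was the highest and Elovl6 lay below Elovl5. Elovl5 held 30.2% ± 0.818 with T3 and 28.7% ± 0.348 with vehicle, and Elovl7 9.44% ± 0.200 with T3 and 11.2% ± 0.388 with vehicle. None of these 4 shares overlapped between groups (exact permutation test, two-sided, p = 0.1 for each, the smallest that 3 libraries against 3 allow, and 0.169 after Benjamini-Hochberg adjustment over 27 shares). The direction for Elovl5 depended on length scaling, with a difference of -0.818 percentage points when reads were not divided by exon length and 1.56 when they were.

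The enzymes that complete each elongation cycle showed small changes in both directions. Tecr, the enoyl-CoA reductase of the last reaction and the elongation gene with the highest level per kilobase, had 6414, 6238 and 6392 normalized reads with T3, against 6531, 7002 and 7094 with vehicle. Each T3 library was below each vehicle library, and Tecr fell by 0.11 on the log2 scale (± 0.04 SE, adjusted p = 0.0483). That call was lost in 10 of the 17 settings, including the omission of any library other than vehicle replicate 1 (adjusted p = 0.0608 to 0.15). Hsd17b12, the ketoacyl-CoA reductase, rose 1.07-fold to 8478 ± 45.7 with T3, against 7893 ± 174 with vehicle (adjusted p = 0.0379), a call lost in 11 settings, including the omission of any library other than T3 replicate 3 (adjusted p = 0.0553 to 0.121).

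Of the hydroxyacyl-CoA dehydratases, Hacd3 fell by 0.24 on the log2 scale (± 0.05 SE, adjusted p = 0.00469), at 4266 ± 256 with T3 and 5041 ± 245 with vehicle. Hacd1 averaged 642 ± 48.2 with T3 and 707 ± 45.5 with vehicle and was not called (adjusted p = 0.159, but 0.0424 with equal column totals). Hacd2 averaged 1120 ± 28.9 with T3 and 1063 ± 50.7 with vehicle and was not called (adjusted p = 0.268). Of the 9 tested elongation genes, 5 were therefore called higher, 2 lower and 2 not, or 77.8% called, beside 44.8% of all genes tested.

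**Figure D3:**
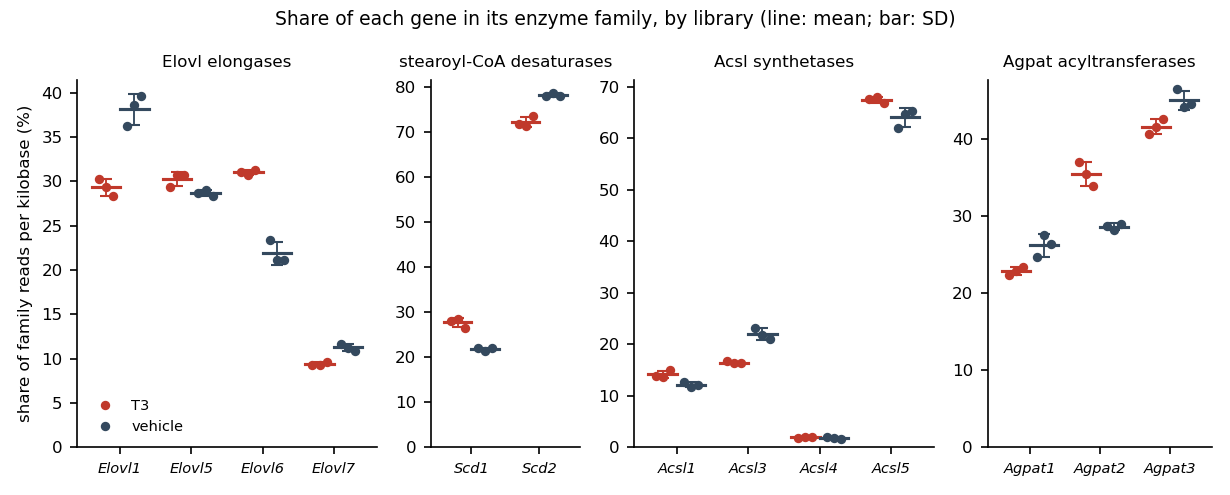
Share of each gene in the reads per kilobase of its enzyme family, in each library (points), with the mean as a line and the SD as a bar, T3 left of vehicle within each gene. Elovl6, Scd1 and Agpat2 take a larger share with T3 and Elovl1, Scd2, Acsl3 and Agpat3 a smaller one; Elovl2, Elovl3 and Elovl4 are near 0 and not drawn.

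Desaturation was the step with the highest summed level per kilobase, and of its 5 genes the stearoyl-CoA desaturases were called higher and the 3 Fads genes were not called. That is 40.0% called, beside 44.8% of all genes tested. Scd1, a stearoyl-CoA desaturase that makes oleate and palmitoleate (gene ID 20249, chromosome 19, 44394450 to 44407709, 6 exons), had 53425, 56135 and 44142 normalized reads with T3, against 33339, 30410 and 32500 with vehicle. The groups were apart although T3 replicate 3 was well below the other T3 libraries, and Scd1 rose 1.59-fold (log2 0.67 ± 0.08 SE, adjusted p = 0.000162). Scd2 lies 87585 bases from Scd1, with Scd4 between them, and was the most abundant gene of the set per kilobase (gene ID 20250, chromosome 19, 44293676 to 44306864, 6 exons). It had 154352, 157994 and 138014 normalized reads with T3, against 133040, 126510 and 129804 with vehicle. Scd2 was above vehicle in every T3 library and rose 1.15-fold (log2 0.21 ± 0.07 SE, adjusted p = 0.0365). The Scd2 call was lost in 10 of the 17 settings, with an adjusted p of 0.0825 under upper-quartile scaling, of 0.0903 with equal column totals and 0.0587 to 0.146 without any library other than T3 replicate 3.

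The share of Scd1 in the summed Scd1 and Scd2 signal per kilobase was 28.1%, 28.6% and 26.5% in the T3 libraries, against 22.0%, 21.3% and 22.0% in the vehicle libraries. Every T3 library was above every vehicle library (exact permutation test, two-sided, p = 0.1, the smallest possible, 0.169 adjusted over 27 shares). The coding sequences of Scd1 and Scd2 were 89.8% identical and their transcripts shared 145 stretches of 50 bases, so reads from the shared stretches could have been split or dropped in the counting and the values of both are uncertain to that extent. A further 10.4% of the exon length of Scd2 overlapped exons of Gm19494 on the opposite strand. Whether strand was used in counting was not given in any source used.

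The Fads genes, which form a cluster on chromosome 19, were not called. Fads1 and Fads2 desaturate polyunsaturated chains near the carboxyl end, and Fads3 is known as a desaturase of sphingoid bases. Fads1 had 19083, 19312 and 18336 normalized reads with T3, against 18771, 18530 and 19243 with vehicle, and the groups overlapped (log2 0.00 ± 0.04 SE, 95% interval -0.09 to 0.09, adjusted p = 0.939). Fads2 averaged 12916 ± 120 with T3 and 12801 ± 334 with vehicle (95% interval of the log2 fold change -0.07 to 0.10, adjusted p = 0.803). Fads3 averaged 1675 ± 78.8 with T3 and 1531 ± 92.4 with vehicle and was not called (adjusted p = 0.0894). The intervals of Fads1 and Fads2 lay below the interval of Scd1, which ran from 0.48 to 0.86, and the difference between the genes was not itself tested. Summed per kilobase, desaturation genes stood at 52665 ± 3332 with T3 and 44838 ± 1068 with vehicle (SD, n = 3), 1.17-fold higher, with 48874 in T3 replicate 3 and at most 45580 in a vehicle library.

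Activation of fatty acids, in which Acsl enzymes attach coenzyme A, was the step whose summed level per kilobase had the highest ratio, at 8708 ± 491 with T3 and 6688 ± 162 with vehicle (SD, n = 3), or 1.30-fold. Acsl5, the main synthetase of intestinal mucosa (gene ID 433256, chromosome 19, 55253369 to 55296628, 22 exons), had 19112, 19235 and 17127 normalized reads with T3, against 12771, 13609 and 14115 with vehicle. The groups did not overlap and Acsl5 rose 1.37-fold (log2 0.45 ± 0.06 SE, adjusted p = 0.000158). Acsl1, the synthetase best known from liver, fat and muscle (gene ID 14081, chromosome 8, 46471042 to 46536050, 21 exons), had 4879, 4809 and 4756 normalized reads with T3, against 3240, 3036 and 3221 with vehicle. Its T3 values were tightly grouped and all above vehicle, and Acsl1 rose 1.52-fold (log2 0.61 ± 0.04 SE, adjusted p = 2.02e-06).

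Acsl4, which prefers arachidonate (gene ID 50790, chromosome X, 142317993 to 142390535, 16 exons), had 912, 998 and 828 normalized reads with T3, against 710, 624 and 596 with vehicle. These groups were apart too, and Acsl4 rose 1.42-fold (log2 0.50 ± 0.09 SE, adjusted p = 0.00109). Acsl3, a synthetase of the endoplasmic reticulum and lipid droplets, averaged 5645 ± 358 with T3 and 5803 ± 160 with vehicle and was not called (95% interval -0.15 to 0.07, adjusted p = 0.534). Of its exon length, 10.6% also belongs to Utp14b on the same strand. The share of Acsl3 in the Acsl signal per kilobase was 16.4% ± 0.219 with T3 and 22.0% ± 1.12 with vehicle, while Acsl5 held 67.4% ± 0.565 with T3 and 64.0% ± 1.76 with vehicle, both without overlap (exact permutation test, two-sided, p = 0.1, the smallest possible, 0.169 adjusted over 27 shares).

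In glycerolipid assembly all 7 genes were called, 6 of them higher, beside 44.8% called in either direction among all genes tested. The exception, Gpam, encodes the mitochondrial acyltransferase of the first acylation of glycerol phosphate and had 3119, 2968 and 2867 normalized reads with T3, against 3576, 3336 and 3470 with vehicle. Every T3 library was below vehicle, and Gpam fell by 0.21 on the log2 scale (± 0.05 SE, adjusted p = 0.00389). Gpam lies 153921 bases from Acsl5 on chromosome 19, and Gpam fell while Acsl5 rose.

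The Agpat enzymes make phosphatidic acid from lysophosphatidic acid. Agpat2, whose human counterpart is mutated in a form of congenital lipodystrophy (gene ID 67512, chromosome 2, 26593587 to 26604210, 6 exons), had 1544, 1464 and 1345 normalized reads with T3, against 902, 878 and 967 with vehicle. Its lowest T3 value exceeded its highest vehicle value by a wide margin, and Agpat2 rose 1.58-fold (log2 0.66 ± 0.06 SE, adjusted p = 2.61e-05). Agpat3, the member of this step with the highest level per kilobase, had 6980, 7060 and 6941 normalized reads with T3, against 5981, 5655 and 6119 with vehicle. Agpat3 rose 1.18-fold without overlap of the groups (log2 0.24 ± 0.04 SE, adjusted p = 0.00092). Agpat1 averaged 2518 ± 20.2 with T3 and 2253 ± 154 with vehicle and rose 1.12-fold (adjusted p = 0.0287). That call was lost in 7 settings, with an adjusted p of 0.0817 without T3 replicate 1, 0.0784 without T3 replicate 2, 0.0646 without vehicle replicate 1 and 0.166 with equal column totals. Agpat2 held 35.5% ± 1.51 of the summed Agpat1, Agpat2 and Agpat3 signal per kilobase with T3 and 28.7% ± 0.409 with vehicle. These shares did not overlap (exact permutation test, two-sided, p = 0.1, the smallest possible, 0.169 adjusted over 27 shares). Agpat4 and Agpat5, outside the 36 genes and named after their values were seen, are not in that sum. They stood at 165 ± 12.6 and 878 ± 16.6 per kilobase with T3, against 154 ± 15.9 and 944 ± 29.4 with vehicle. Neither was called (adjusted p = 0.42 and 0.0543).

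Lipins remove the phosphate from phosphatidic acid to give diacylglycerol. Lpin3 rose 1.40-fold, at 1129 ± 118 with T3 and 808 ± 80.9 with vehicle (adjusted p = 0.00221). Lpin1 rose 1.26-fold, at 1174 ± 109 with T3 and 927 ± 24.0 with vehicle (adjusted p = 0.00325). Lpin2 rose 1.11-fold, at 1716 ± 43.4 with T3 and 1550 ± 95.5 with vehicle (adjusted p = 0.0462). The call of Lpin2 was lost in 11 settings, with an adjusted p of 0.149 without T3 replicate 1, 0.0611 without T3 replicate 2, 0.0819 without T3 replicate 3, 0.133 without vehicle replicate 3 and 0.249 with equal column totals. The lipin shares overlapped between groups. Summed per kilobase, the glycerolipid genes stood at 6483 ± 212 with T3 and 5375 ± 146 with vehicle (SD, n = 3), or 1.21-fold.

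**Figure D4:**
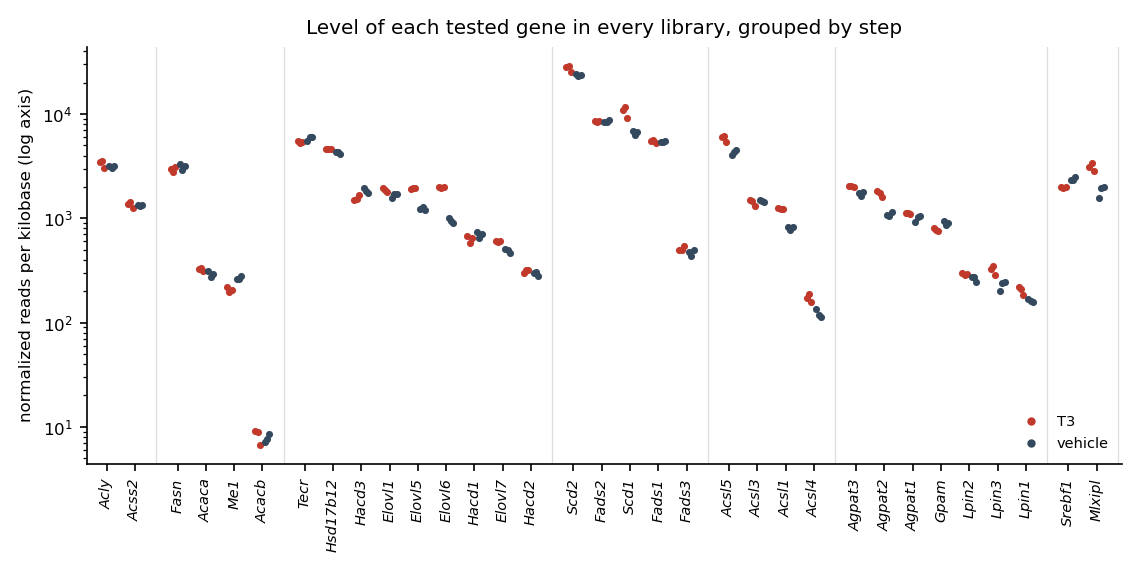
Normalized reads per kilobase of exon (log axis) of the 33 tested genes in each library, grouped by step, T3 left of vehicle. Scd2 is the highest at 25665 over the 6 libraries and Acacb the lowest at 8.03, and the differences between genes are far larger than those between groups.

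Per kilobase and over all 6 libraries, the desaturases Scd2, Scd1 and Fads2 were the highest of the set, at 25665, 8612 and 8527, followed by Tecr at 5632 and Fads1 at 5456. Among all genes of the table Scd2 ranked at position 61. The order differed between the groups. Acsl5 stood at 5868 ± 375 per kilobase with T3, where its libraries overlapped those of Tecr (5407 ± 81.7) and Fads1 (5465 ± 148), whereas with vehicle Acsl5, at 4284 ± 215, lay below Tecr (5857 ± 257) and Fads1 (5447 ± 105) in every library. Scd1 and Fads2 took different places in the groups: Scd1 stood at 10592 ± 1300 and Fads2 at 8565 ± 79.5 with T3, whereas with vehicle Scd1 stood at 6633 ± 312 and Fads2 at 8489 ± 222. The libraries of Elovl5 and Elovl6 overlapped with T3, at 1931 ± 35.3 for Elovl5 and 1980 ± 24.1 for Elovl6, but not with vehicle, at 1248 ± 43.3 for Elovl5 and 952 ± 56.2 for Elovl6.

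Beyond the 36 genes, 84 other genes of the pathway were listed, and 76 of them were tested. Of these, 28 were called higher and 13 lower, or 53.9% together, beside 44.8% of all genes tested, with a median log2 fold change of 0.04. With equal column totals 23 of the 76 were called higher and 22 lower, beside 18.7% and 29.5% of all genes tested. In citrate and NADPH supply 2 of 7 rose and 2 fell, or 57.1% called. Me2, the mitochondrial malic enzyme, rose 2.28-fold to 10300 ± 227 with T3, against 4510 ± 83.0 with vehicle (adjusted p = 1.69e-08), so Me2 and the cytosolic Me1 moved in opposite directions. The other mitochondrial malic enzyme gene, Me3, named after its values were seen, was low, at 37.0 ± 4.58 with T3 and 27.3 ± 7.51 with vehicle, and was not called (adjusted p = 0.144). Acss1, the mitochondrial acetyl-CoA synthetase, fell by 1.10 on the log2 scale, to 1168 ± 28.7 with T3, against 2499 ± 60.7 with vehicle (adjusted p = 7.63e-08). Slc25a1, the carrier that exports citrate from mitochondria, rose 1.59-fold (adjusted p = 7.98e-05) and was chosen after its values were seen.

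Among 12 tested regulators 6 rose and 1 fell, or 58.3% called, beside 44.8% of all genes tested. Mid1ip1, a partner of acetyl-CoA carboxylase that promotes its polymerization, had 7889, 7826 and 7539 normalized reads with T3, against 3109, 3463 and 3698 with vehicle. The values of Mid1ip1 were apart by a wide margin and it rose 2.27-fold (log2 1.18 ± 0.06 SE, adjusted p = 3.64e-07). Its relative Thrsp, named after its values were seen and known as Spot 14 from its response to thyroid hormone in rat liver, had 0, 2 and 0 normalized reads with T3 and 0 in each vehicle library, and was below the filter. Mlx, the dimer partner of ChREBP, rose 1.43-fold to 2981 ± 99.6 with T3, against 2084 ± 40.6 with vehicle (adjusted p = 8.03e-06). The oxysterol receptor genes, also named after their values were seen, went apart, with Nr1h2 1.24-fold higher (adjusted p = 0.000262) and Nr1h3 lower by 0.49 on the log2 scale (adjusted p = 7.36e-05).

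In triglyceride assembly and droplets 6 of 11 tested genes rose and 1 fell, or 63.6% called, beside 44.8% of all genes tested. Gpd1, which makes glycerol phosphate from a glycolytic intermediate, rose 1.79-fold to 10914 ± 585 with T3, against 6102 ± 193 with vehicle (adjusted p = 7.94e-07), and Plin2, a coat protein of lipid droplets, rose 1.26-fold (adjusted p = 8.74e-05). In phospholipid synthesis 11 of 25 rose and 3 fell, or 56.0% called, beside 44.8% of all genes tested. Chpt1, which makes phosphatidylcholine from diacylglycerol, rose 2.07-fold to 3227 ± 75.7 with T3, against 1559 ± 41.2 with vehicle (adjusted p = 7.63e-08). Mboat1, a lysophospholipid acyltransferase, rose 2.53-fold to 1061 ± 59.6 with T3, against 418 ± 18.7 with vehicle (adjusted p = 2.81e-07).

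Other acyl-CoA synthetases and transporters went both ways, 3 of 9 higher and 3 lower, or 66.7% called, beside 44.8% of all genes tested. Of the fatty acid transport proteins, Slc27a1 and Slc27a2 fell by 0.64 and 0.45 on the log2 scale (adjusted p = 0.000133 and 3.05e-05). Slc27a4, named after its values were seen, rose by 0.26 on that scale (adjusted p = 0.00274). Slc27a3, Slc27a5 and Slc27a6 were not called. Of 7 genes of mitochondrial fatty acid synthesis none rose and 2 fell, or 28.6% called, beside 44.8% of all genes tested. Mcat fell by 0.29 and Mecr by 0.20 on the log2 scale (adjusted p = 0.00384 and 0.0143). The call of Mecr was lost without T3 replicate 2 (adjusted p = 0.0573) and without vehicle replicate 3 (0.0522). Of 5 tested genes listed as further desaturases and elongation enzymes none rose and 1 fell, or 20.0% called. That gene, Acer1, encodes an alkaline ceramidase and not a desaturase or elongation enzyme, and fell to 94.0 ± 20.0 with T3, against 348 ± 14.0 with vehicle (log2 -1.90 ± 0.14 SE, adjusted p = 5.26e-06).

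**Figure D5:**
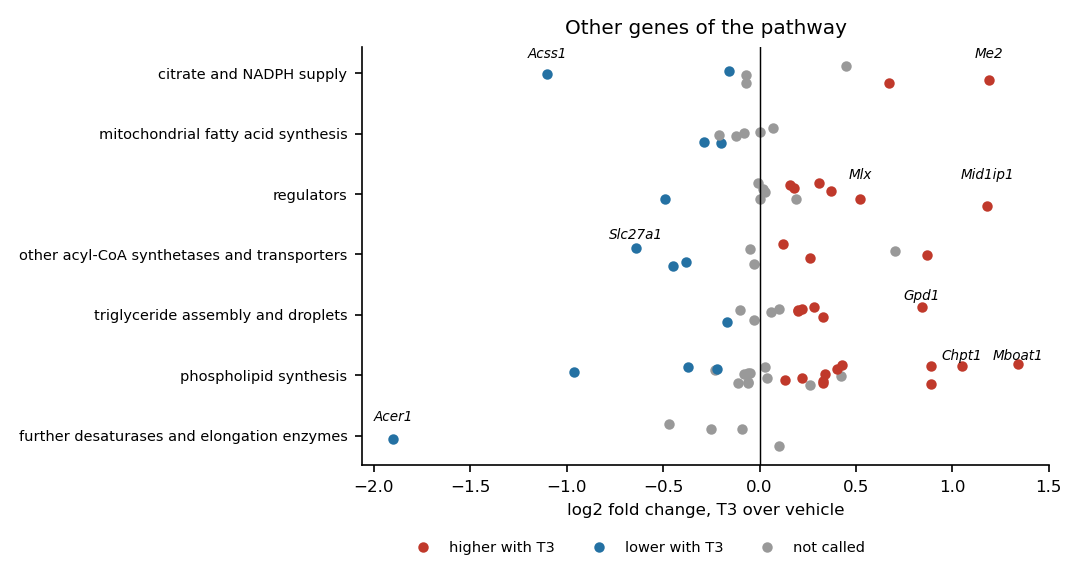
Log2 fold change (T3 over vehicle) of the 76 other tested genes of the pathway, 1 point per gene, by group of genes; the vertical scatter within a group is arbitrary. Mboat1, Me2, Mid1ip1 and Chpt1 lie beyond 1 on the right and Acer1 and Acss1 beyond -1 on the left.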

How the data were processed

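RNA of 6 libraries from mouse small intestinal organoids was sequenced from directional libraries, per the labels' protocols. The authors' tools, per the submitters' processing notes, include STAR, Subread and DESeq2, with no version. Sample columns carry mm10 in their headers, the build of the coordinates. The authors deposited reads per gene after scaling and rounding, which is a normalized score and not a count, and averaging the 6 sample columns returned their mean column, with a largest gap of 0.833. The deposited log2 fold changes and p-values of the authors' own comparison served as an alternative, and deposited exon lengths and positions were used as given. The reads behind the scaled values were not restored, so the precision of low values is known only from the spread of libraries, and no count model was fitted.

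Differences were tested with limma 3.58.1 (R 4.3.3) on log2(value + 1), with a mean-variance trend and without a block, for genes that reached 10 normalized reads in 3 or more libraries. The procedure was also run on simulated data in which only a small part of the genes changed. That run does not cover changes as widespread as those here, and its outcome is not reported here. Intervals are 95% intervals from limma. Levels per kilobase divide by the deposited exon length. Family shares were compared with exact permutation tests over libraries. Members, lists and tests were chosen with earlier results of these data known. Values in each library are given for called genes with an absolute log2 fold change of at least 0.5 and for the gene with the highest level per kilobase in each step, and added for Me1, Srebf1, Gpam and Fads1 after their values were seen. Of the other genes of the pathway, up to 2 called genes with the smallest p-value are named per group. Alternatives were other scalings, filters, pseudocounts, variance models, a threshold of 0.01, a replicate block, the omission of each library, and the authors' values. Coding identity used the longest open reading frame of GENCODE transcripts. Protein identity was not analysed here. The summed level of the immune marker list is not reported here.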

Additional observations from a re-analysis of the deposited data

How the results depend on the processing

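None of the 33 tested genes changed direction where it was called, and 16 of 22 calls held in all 17 settings. The number of genes called higher was 17, with a range of 12 to 18 when single libraries were left out, and the number called lower was 5, with a range of 4 to 5. Over the series 5851 genes were called, and 4548 to 5951 without single libraries. The median log2 fold change of the 33 genes, 0.15, was 0.10 with upper-quartile scaling, 0.08 with equal column totals, 0.12 with no filter on low values, where Elovl2, Elovl3 and Elovl4 enter, and 0.12 to 0.17 without single libraries. Among the other pathway genes 28 were called higher and 13 lower, with 23 to 29 and 11 to 13 without single libraries. With equal column totals 23 were called higher and 22 of the 76 lower, beside 18.7% and 29.5% of all genes tested. The share of Elovl5 among elongases differed by -0.818 percentage points, in place of 1.56, when reads were not divided by length. Equal replicate numbers are not said to pair the cultures. Deviations of same-numbered libraries correlated at -0.0701, 0.0278 and -0.0568, and those of differently numbered libraries at -0.0476 to 0.0946. With 3 libraries per group these values cannot settle whether cultures were paired. With the number as a replicate block 5405 genes were called, 14 of the 33 higher and 4 lower, and 26 other pathway genes higher and 13 lower, with a median of 0.15 for the 33. The calls missing there were Hsd17b12 (adjusted p = 0.0758), Tecr (0.0793), Scd2 (0.0773) and Lpin2 (0.0654). With the authors' deposited values 15 of the 33 were called higher and 4 lower. Hsd17b12 (adjusted p = 0.0839), Tecr (0.0823) and Lpin2 (0.0949) were not called there. Genes under the filter, Elovl2 to Elovl4 among them, are too low for a comparison.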

Other observations

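T3 replicate 3 was the lowest T3 library for 19 of the 33 tested genes and for 12 of the 17 called higher, while it was the lowest for 38.4% of all genes tested and for 57.4% of all genes called higher. T3 replicate 1 was the lowest for 3 of the 33 and T3 replicate 2 for 11. Leaving out T3 replicate 3 left 18 genes called higher and 4 lower, with Acly and Acaca added and Lpin2 and Tecr lost.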
